A study of Mus musculus with 2 samples.

Results

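C1q-high macrophages of the embryonic mouse coronal suture, the joint between the frontal and parietal bones, were examined in single-cell libraries of the embryonic stages E15.5 and E17.5. They are cells that the authors did not place among their osteogenic and mesenchymal clusters and that carried RNA of the complement C1q chains together with *Csf1r*, the receptor on which macrophages depend for survival. The members were chosen by their own counts. A barcode was taken when it had no deposited cluster label, at least 1000 unique molecular identifiers (UMIs, each standing for 1 captured RNA molecule), at least 1000 detected genes, no more than 7.5% of UMIs from mitochondrial genes and no more than 3% from each of the *Hbb* and *Hba* globins. It also needed at least 10 UMIs of *C1qa*, *C1qb* and *C1qc* together, at least 1 of *Csf1r* and fewer than 20 of *Acp5* and *Mmp9* together, which keeps osteoclasts out. These limits gave 889 members among 16977 cells, 318 of 8210 at E15.5 against 571 of 8767 at E17.5. The genes of the rule chose the cells and are therefore described but not counted as results.

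Both stages were sampled from wild-type embryos labelled as strain C57/BL6, which the study's methods give as C57BL/6J, after the skin, the brain and part of the meninges had been taken off the skull. At E15.5, 10 sutures were pooled, digested with collagenase II and dispase and depleted of dead cells. At E17.5, sutures of 2 litters were digested with collagenase IV in 3 batches of 10, 3 and 3 sutures, and each batch was sorted to remove debris, doublets and dead cells. Both used the Chromium 3′ v2 chemistry of 10x Genomics. The E17.5 libraries were prepared separately for the 3 batches and deposited as 1 combined matrix. E15.5 has a single library and no replicate, and no test between the stages was made. The stages were also sequenced at different sites and to different depths. Stage, embryos, enzyme, sorting, sequencing and the gene list, and perhaps the software version, used for counting cannot be told apart. E17.5 barcodes end in a suffix of 1, 2 or 3, which the sources used here do not tie to a batch or litter. The suffixes are given separately as technical units and show the spread within the E17.5 matrix. For brevity, the matrix of a stage is called its library.

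Macrophages are phagocytes that settle in nearly all tissues before birth. In developing bone and its coverings they take up dying cells and matrix debris, and they release chemokines, complement and growth factors. Their closest relatives in the suture are blood monocytes, from which some macrophages arise, and osteoclasts, which fuse from cells of the same lineage. The macrophages that line the brain in the dura and leptomeninges, often called border-associated macrophages, are known for *Mrc1*, *Lyve1*, *Pf4* and *Cd163*, whereas the microglia inside the brain are known for *P2ry12*, *Tmem119* and *Sall1*.

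Members had a median of 9927.5 UMIs at E15.5 (lowest 2228, highest 29604) and of 9850 at E17.5 (3052 to 104334), with medians of 2948.5 and 2990 genes. They held 3515231 UMIs in all at E15.5 against 6501761 at E17.5. No barcode was shared between members of E15.5 and of any suffix, or between suffixes, while 8 to 42 barcodes were shared between the kept cells of each pair. Among the genes of the rule, the C1q chains had a median of 51.5 UMIs per member at E15.5 against 121 at E17.5, and *Csf1r* of 4 and 7. Just outside the limit on C1q, with 5 to 9 UMIs, lay 13 cells in each library. Just inside it, with 10 to 14 UMIs, lay 14 and 7 cells, and 289 and 558 members had 20 or more. The level of a gene is given as the sum of its UMIs over the members divided by all their UMIs, times 1000000 (CPM). Members near the limit differed from the rest. At E15.5, *Pf4* was at 614, 1760 and 3759 CPM and *Mrc1* at 61.9, 233 and 796 in members with 10 to 14, 15 to 19 and at least 20 C1q UMIs. At E17.5, the same bands had 483, 393 and 6984 CPM of *Pf4* and 112, 36.8 and 987 of *Mrc1*. *Lyz2*, which is high in monocytes, was at 1672 and 2215 CPM near the limit at E15.5, against 788 with 20 or more. Another 2 and 4 cells met all other limits but were left out by *Acp5* and *Mmp9*. Intervals in parentheses are exact Poisson or binomial 95% intervals, which cover counting error only.

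The label was checked with *Pf4* and *Mrc1*, markers that the rule did not use. *Pf4* (ENSMUSG00000029373, chromosome 5 from 90772435 to 90773383), a chemokine of platelets and resident macrophages, was at 3529 CPM at E15.5 and at 6924, 6709 and 6600.3 CPM in the E17.5 suffixes 1 to 3. In cells with a deposited label it was at 12 and 42.9 CPM. *Mrc1* (ENSMUSG00000026712, chromosome 2 from 14229392 to 14332057), the mannose receptor, was at 739.9 CPM at E15.5 and at 1069, 1003 and 844 CPM in the E17.5 suffixes 1 to 3, against 1.21 and 5.75 CPM in labelled cells. Both markers thus separated the members from the mesenchyme in both libraries, by a factor of 295 and 156 for *Pf4*. With each cell thinned at random to 3000 UMIs, *Pf4* was found in 84.3% of members at E15.5 against 94.2% at E17.5 and *Mrc1* in 69% and 83.9%. In labelled cells, which should lack both genes, the shares were 3.38% and 12.3% for *Pf4* and 0.425% and 1.76% for *Mrc1*. Thinning left out 5 shallower members, all at E15.5. Without thinning, 85.2% and 93.9% of members and 1.05% and 7.44% of labelled cells had an *Mrc1* UMI, the labelled cells having medians of 8510 and 12301.5 UMIs.

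Markers of the border and tissue-resident macrophage type, a list of 17 genes, added up to 6814 CPM in members at E15.5 against 12503 at E17.5. In labelled cells the same list added up to 183 and 226 CPM. All 16 of its genes with enough UMIs were at least 2-fold above labelled cells in both libraries, where 10.6% of 12934 genes were. Defining genes of microglia divided. *Cx3cr1*, *Fcrls*, *Gpr34* and *P2ry12* were detected, whereas *Sall1* had 1 UMI, at E17.5, and *Sall3* had none. *Tmem119* and *Olfml3* were lower in members than in labelled cells, at 40.7 and 73.2 CPM against 152 and 335 for *Tmem119*. Markers of other blood cells were also examined. The 8 dendritic cell genes summed to 17.9 and 13.2 CPM, too few UMIs for any to be compared between the stages, and the 10 neutrophil genes to 14.5 and 10.9 CPM, with *Elane* at 0. Of the 6 platelet genes, *Treml1* was at 0, *Gp9* had 2 and 0 UMIs, and *Ppbp* reached 17.6 and 47.4 CPM, 107-fold and 146-fold above labelled cells. Of the lymphocyte genes, *Cd3e*, *Cd3g* and *Rag1* were at 0, and *Cd79b* made up nearly all of the sum, at 51.5 and 66.1 CPM, 109-fold and 91.4-fold above labelled cells. The 8 mast cell genes summed to 107 and 148 CPM, against 109 and 31.8 in labelled cells. RNA of mesenchyme was present in members, where 10 markers summed to 4705 and 5614 CPM, against 36538 and 39398 in labelled cells.

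**Figure D1:**
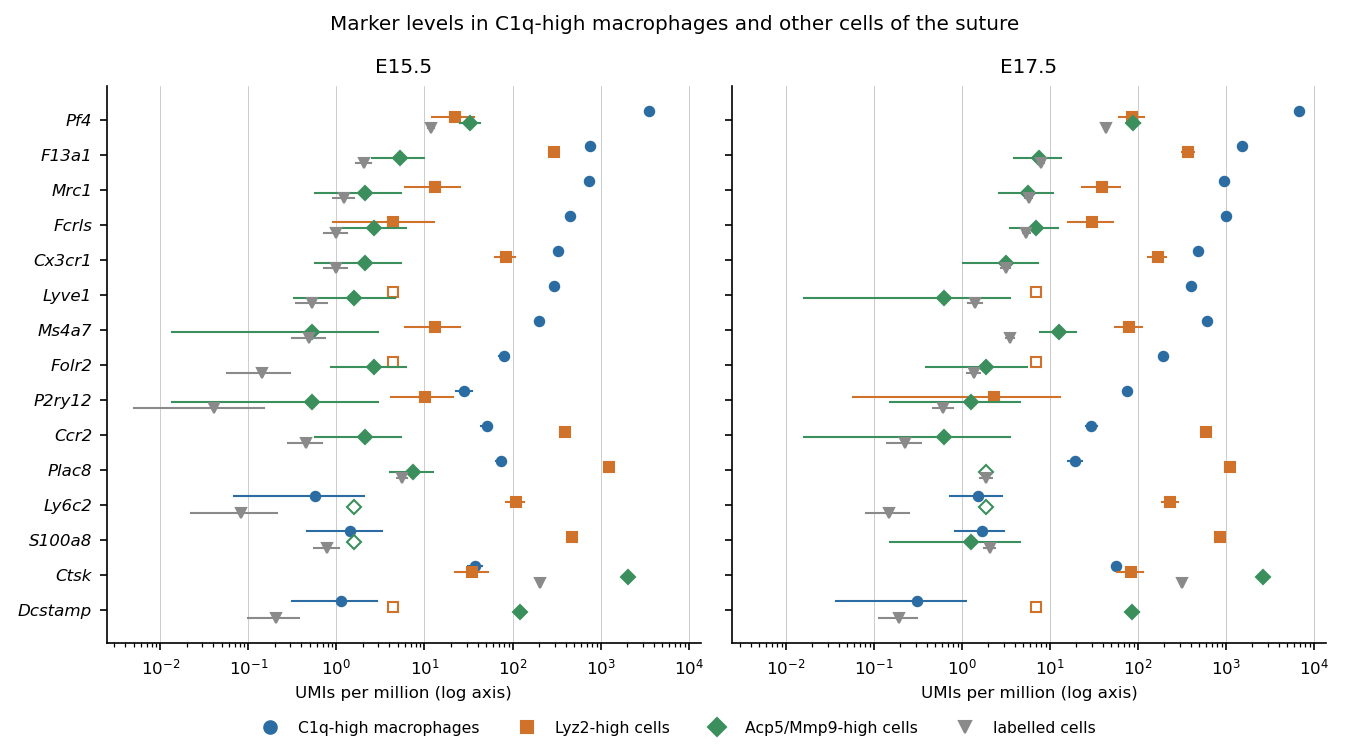
Levels of 15 marker genes in C1q-high macrophages (blue circles), Lyz2-high cells (orange squares), Acp5/Mmp9-high cells (green diamonds) and labelled cells (grey triangles), in CPM on a log axis, at E15.5 (left) and E17.5 (right). Lines are exact Poisson 95% intervals and open symbols mark genes with 0 UMIs, drawn at the floor of 3 counts. From *Pf4* to *P2ry12* the macrophages lie to the right of all other cells, and from *Ccr2* to *S100a8* the Lyz2-high cells do.

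Members were then set beside their nearest relatives among the unlabelled cells. One set, called Lyz2-high cells, held 86 and 49 cells of the E15.5 and E17.5 libraries with at least 10 UMIs of *Lyz2*, at least 1 of *Tyrobp* and fewer than 10 of C1q. The other, called Acp5/Mmp9-high cells, held 92 and 67 cells with at least 20 UMIs of *Acp5* and *Mmp9*. Both sets were cut by expression from the same libraries, so the differences describe them and were not tested. *Pf4* was 161-fold (97.5 to 288) and 78-fold (56.5 to 111) higher in members than in Lyz2-high cells, and *Mrc1* 56.2-fold and 24-fold. *Lyve1*, the hyaluronan receptor, and *Folr2*, a folate receptor, had 0 UMIs in Lyz2-high cells of both libraries. The chemokine genes *Ccl12*, *Ccl24* and *Ccl7*, the transporter *Slco2b1*, *Fcrls* and *Gas6*, a bridge between dying cells and their phagocytes, completed the 10 genes that led this difference. For *Gas6* the levels were 325 and 643 CPM in members and 4.39 and 23.2 in Lyz2-high cells. In all, 365 of 7854 genes (4.65%) were at least 2-fold higher than in Lyz2-high cells in both libraries and 214 (2.72%) lower. Of the border and tissue-resident list, 15 of 16 were higher and 1, *Clec4n*, was lower, with a median difference of 3.44 (log2) at E15.5 against 4.17 at E17.5, beside 0.16 and 0.14 over all genes compared.

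Genes of blood monocytes and of antigen presentation were lower in members. Of 11 monocyte genes compared, 10 were at least 2-fold lower than in Lyz2-high cells in both libraries and none higher. The monocyte surface protein gene *Ly6c2* was at 0.569 and 1.54 CPM in members against 108 and 232. *Ccr2*, the receptor by which monocytes leave the marrow, was at 50.9 and 29.5 CPM against 398 and 595. Of 7 genes of class II antigen presentation, 6 were lower, *Cd74* being at 186 and 157 CPM against 1338 and 5592. The other genes leading this direction were *Stfa1*, *S100a8*, *Hp*, *Ltb4r1*, *Ifitm6*, *Sirpb1c*, *Plac8*, *Napsa* and *Mcemp1*. *Lyz2* itself cut the set, and the Lyz2-high cells also hold neutrophil RNA, with 595 and 948 CPM of the neutrophil list.

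Against Acp5/Mmp9-high cells, 856 of 8338 genes (10.3%) were at least 2-fold higher in members in both libraries and 342 (4.1%) lower. *C5ar1*, the receptor of the complement fragment C5a, was 307-fold and 380.3-fold higher, and *Cx3cr1*, the fractalkine receptor, 156-fold and 153-fold. *Lyve1*, *Mrc1*, *Ccl12*, *F13a1*, *Fcrls*, *Ms4a6b*, *Pld4* and *Fcgr3* led the same direction. The protease *Ctsk*, with which osteoclasts digest bone collagen, was at 37.6 and 56.4 CPM in members and at 2065 and 2667 in Acp5/Mmp9-high cells. *Dcstamp*, needed for fusion, had 4 and 2 UMIs in members, and *Calcr* and *Oscar* had 0. *Tnfrsf11a*, the receptor for the osteoclast factor RANKL, was by contrast at 36.1 and 39.1 CPM in members, beside 47.8 and 64.2 in Acp5/Mmp9-high cells. The plot of marker levels shows these contrasts in both libraries.

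The genes that set members most clearly apart from labelled mesenchyme, each at least 177-fold higher in both libraries, were *Lyve1*, *Ms4a6c*, *Cd84*, *Bcl2a1b*, *Gpr34*, *Igsf6*, *Casp1*, *Casp4*, *C5ar1*, *Ms4a6d*, *Bank1*, *C3ar1*, *F13a1*, *Cybb*, *Ccr1*, *Fcrls*, *Adap2*, *Hk3*, *Gna15* and *Clec10a*. Several of them are shared with Lyz2-high cells. *Ms4a6c*, *Igsf6*, *Ccr1* and *Cybb*, a subunit of the phagocyte oxidase, were lower in members than in Lyz2-high cells, with ratios of 0.244 and 0.205 for *Cybb*. *Lyve1*, *Fcrls*, *Adap2*, *Gpr34* and *Bank1* were at least 2.89-fold higher in both libraries, or at 0 in Lyz2-high cells.

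C1q-high macrophages made up 3.87% of cells at E15.5 (3.47 to 4.31) against 6.51% at E17.5 (6.01 to 7.05), which was 1.68 times as many (1.46 to 1.93). The 3 suffixes were alike, at 6.21%, 6.52% and 6.63%, and each lay above the interval of the E15.5 library. Among unlabelled cells only, the shares were 11.1% and 29.5%, or 2.67 times as many (2.32 to 3.07). Lyz2-high and Acp5/Mmp9-high cells were fewer at E17.5 than at E15.5. Dissection, enzyme and sorting differ with stage, and their part in the shares was not tested. RNA of mitosis genes was found in more members than in most mesenchyme. With at least 3 thinned UMIs of 14 mitosis genes as the limit, 38.7% (33.2 to 44.3) of members were counted at E15.5 against 29.6% (25.9 to 33.5) at E17.5, with 32.6%, 29.4% and 28.6% in the suffixes. The shares were 20.5% (12.4 to 30.8) and 8.16% (2.27 to 19.6) in Lyz2-high cells, 54.3% (43.6 to 64.8) and 29.9% (19.3 to 42.3) in Acp5/Mmp9-high cells, 99% and 96.8% in the proliferating clusters PO1 and PO2, and 10.3% and 14.4% in the other labelled clusters. Single mitosis genes were a little lower at E17.5, *Mki67*, a protein of cycling nuclei, being at 133 and then 83.8 CPM, and none of the 14 differed 2-fold. Of the 15 genes of S phase, 1, *Hells*, was at least 2-fold lower at E17.5, though not in suffix 1. The part of free RNA in these shares was not tested.

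Between the stages, 355 of the 7525 genes with at least 100 UMIs were at least 2-fold higher at E17.5 in members (4.72%) and 384 were at least 2-fold lower (5.1%), together 739 (9.82%), with a median log2 ratio of 0.01. Many of these differences were not particular to the macrophages. The share of all 7525 genes that differed 2-fold in labelled cells is not given here, so no excess is read from the counts that follow. Of the 355 higher genes, 169 were also 2-fold higher in labelled cells, and of the 384 lower genes 186 were also 2-fold lower there. Leading genes of this kind were *Cebpb*, at 16.8 and 469 CPM in members with a ratio of 9.44 in labelled cells, *Rpl13a*, *Erh*, *Btf3l4*, *Ube2m*, *Ndufa4l2* and the predicted genes *Gm9493*, *Gm10076* and *Rpl27-ps3*, and in the other direction *Pgk1*, *Tpm3-rs7*, *Gm10260* and *Gm12166*. The 2 libraries were counted with different gene lists, and genes with near-identical copies are uncertain for that reason. The part of the counting in the differences of other genes was not tested. The cartilage genes *Col2a1*, *Matn1*, *Mia*, *Hapln1*, *Col9a1* and *3110079O15Rik* were lower as well. *Col2a1* fell from 608 to 61.4 CPM in members, and 42 and 27 members, in which mesenchyme and cartilage genes held over 1% of UMIs, carried 81.8% and 54.1% of its UMIs. Without them it was at 137 and 31.3 CPM. All 5 chondrocyte genes compared were 2-fold lower in each suffix, and the list was also lower in labelled cells, by a median log2 of -1.32 against -3.31 in members. Of the 10 mesenchyme markers, *Dcn* and *Mdk* were at least 2-fold lower at E17.5, *Mdk* in each suffix, and *Dcn* had a ratio of 0.368 with all members but 1.13 without cells of high doublet score.

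**Figure D2:**
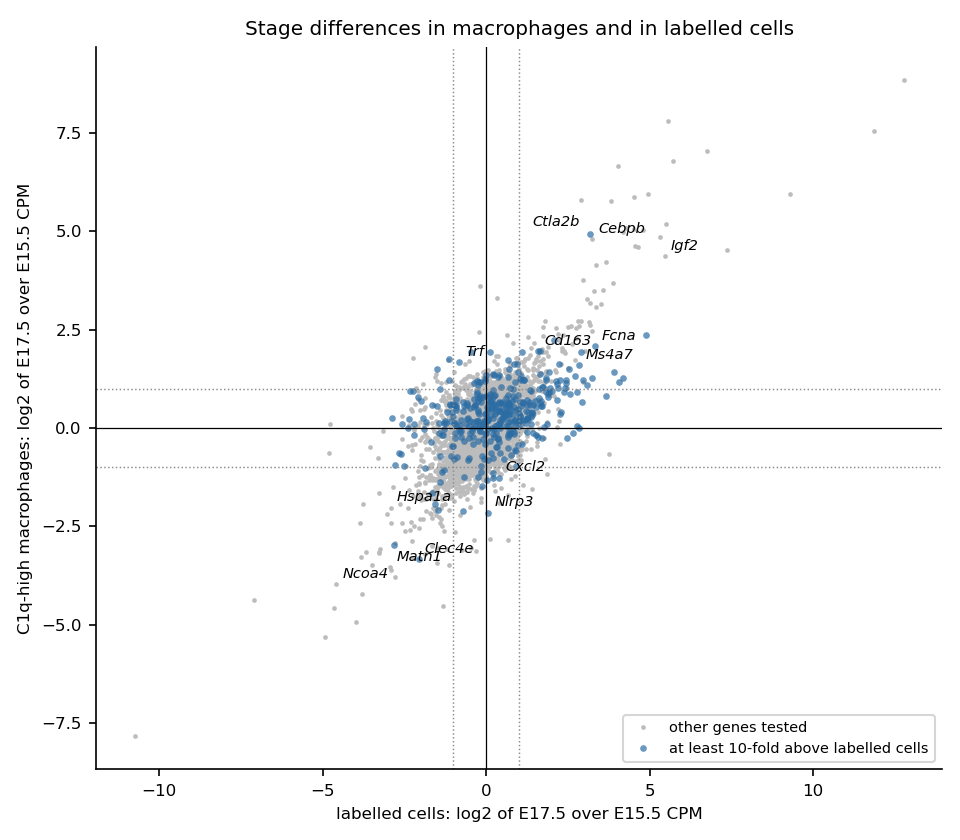
Each point is 1 of 7525 genes, with the log2 ratio of its level at E17.5 over E15.5 in labelled cells on the x axis and in C1q-high macrophages on the y axis. Blue points are the 377 genes at least 10-fold above labelled cells in both libraries, dotted lines mark 2-fold, and genes at 0 are drawn at the floor of 3 counts. *Cebpb*, *Igf2*, *Ncoa4* and *Matn1* lie far from 0 on both axes, whereas *Cxcl2*, *Nlrp3* and *Trf* differ more in the macrophages than in labelled cells. Lyz2-high cells are not drawn. In them, *Cxcl2* and *Nlrp3* were lower at E17.5 as well, and a larger share of cells held a *Trf* UMI.

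To set such shared differences aside, the genes at least 10-fold higher in members than in labelled cells of both libraries were taken alone. Of these 377 genes, 5.01% of those compared, 65 were at least 2-fold higher at E17.5 (17.2%) and 19 were at least 2-fold lower (5.04%), and the median log2 ratio was 0.37. In each of the 3 suffixes alone, 36 (9.55%) were higher and 11 (2.92%) lower, beside 2.94% and 3.18% of all 7525 genes. Genes were compared above a minimum of UMIs summed over both libraries, and members held more UMIs at E17.5. Genes higher at E17.5 therefore pass this minimum more easily than genes lower there. With a minimum of 20 UMIs, 105 enriched genes were higher and 42 lower, and with no minimum 252 and 163. The size of the excess thus depended on the minimum, and its part in the median ratio was not tested. The 36 included scavenger and lectin receptors (*Cd163*, *Stab1*, *Mgl2*, *Clec10a*, *Fcna*), Fc receptors (*Fcgr2b*, *Fcgr3*), enzymes of leukotrienes and thromboxane (*Alox5*, *Ltc4s*, *Tbxas1*), inhibitory receptors (*Lilrb4a*, *Siglece*, *Lair1*, *Il10ra*), iron genes (*Trf*, *Hfe*), the purine receptor *P2ry12* and the chemokine *Ccl7*. The 11 included *Cxcl2*, a chemokine that draws neutrophils, *Nlrp3*, the sensor of the inflammasome, *Tnfaip3*, a gene induced by NF-kappa B, the pattern receptor *Clec4e*, and *Plac8* and *Napsa*, which are high in Lyz2-high cells.

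**Figure D3:**
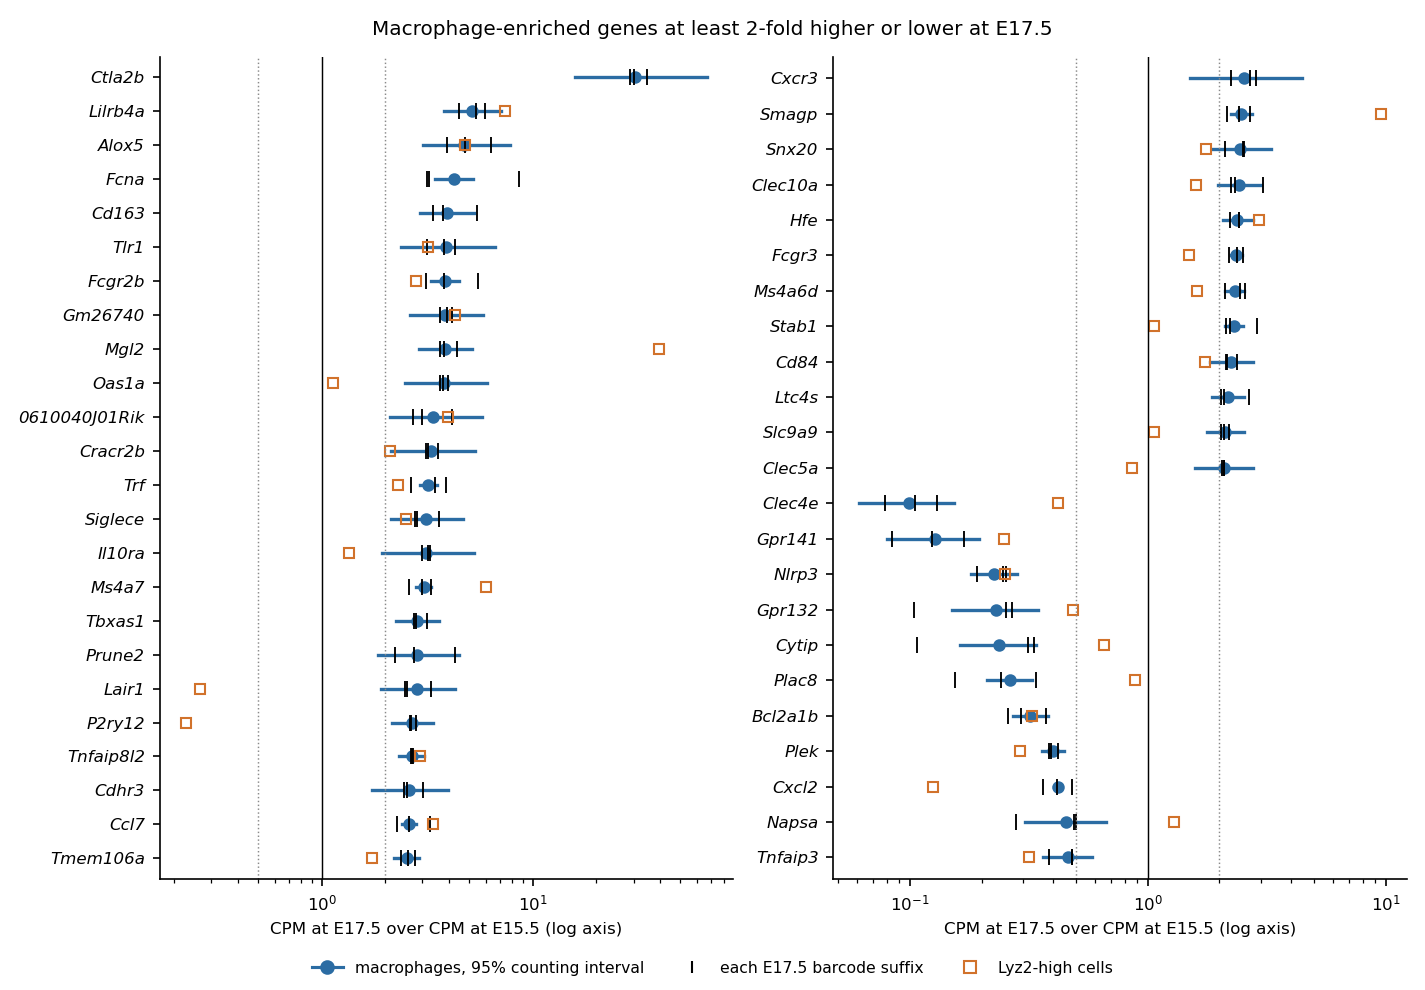
Ratio of CPM at E17.5 over E15.5, on a log axis, for the 36 macrophage-enriched genes at least 2-fold higher and the 11 at least 2-fold lower in each suffix. Circles with lines are C1q-high macrophages with their exact 95% counting interval, bars the 3 suffixes, squares Lyz2-high cells where a ratio above 0 could be formed, and dotted lines 2-fold. *Ctla2b* lies furthest to the right and *Clec4e* furthest to the left, and the Lyz2-high cells follow the macrophages for *Nlrp3* and *Bcl2a1b* but not for *Plac8*.

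Genes of border and tissue-resident macrophages stood higher at E17.5. Of 16 compared, 8 were at least 2-fold higher (*Folr2*, *Cd163*, *F13a1*, *Cbr2*, *Ms4a7*, *Stab1*, *Ltc4s* and *Fcna*) and none lower, all but *Folr2* and *F13a1* in each suffix. The share of higher genes was 4.72% over all genes and 17.2% over enriched genes, to which 13 of the 16 belong. The median log2 ratio was 0.97, beside 0.01 over all genes and 0.37 over enriched genes. *Cd163* (ENSMUSG00000008845, chromosome 6 from 124304656 to 124330527), the receptor for haemoglobin bound to haptoglobin, was at 15.4 CPM at E15.5 and at 83.4, 57.7 and 51.5 CPM in the E17.5 suffixes 1 to 3, a ratio of 3.9 (2.93 to 5.29). The 3 suffixes lay well above E15.5, suffix 1 being the highest. *Ms4a7* (ENSMUSG00000024672, chromosome 19 from 11321039 to 11336146), a membrane protein gene of border-associated macrophages, was at 201 CPM at E15.5 and at 521, 662 and 602 CPM in the E17.5 suffixes 1 to 3, a ratio of 3.04 (2.81 to 3.3). Its share of thinned members with a UMI was 40.3% at E15.5 against 75.7% at E17.5, beside 0.116% and 1.27% in labelled cells. *Cbr2*, a carbonyl reductase, was at 7.4 CPM at E15.5 and at 108, 69.1 and 61.4 CPM in the E17.5 suffixes 1 to 3. *F13a1*, the A chain of coagulation factor XIII and the most abundant of the 8, was at 753 CPM at E15.5 and at 1885, 1450.2 and 1435 CPM in the E17.5 suffixes 1 to 3. *Timd4*, which binds phosphatidylserine on dying cells, had 5 UMIs at E15.5 against 71 at E17.5, too few to be compared. The remaining genes of the list moved less. *Mrc1* was 1.28-fold higher (1.22 to 1.34), *Pf4* 1.9-fold (1.86 to 1.94), *Lyve1* 1.33-fold (1.24 to 1.43) and *Ednrb*, an endothelin receptor, 1.19-fold (1.05 to 1.35). The last 2 rested on suffix 1. *Ednrb* was at 106 CPM at E15.5 and at 291, 84.4 and 89 in the suffixes, 2 of which lay below E15.5. In suffix 1 *Lyve1* was at 704 CPM against 336 and 319 in the other suffixes and 299 at E15.5. In labelled cells, where these genes were rare, their ratios were higher still, with a median log2 of 1.62. *Ms4a7*, for example, was at 0.494 CPM there at E15.5, then 3.55, and *Folr2* at 0.144, then 1.36. The part of free macrophage RNA in the labelled cells was not tested.

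*Fcna* (ENSMUSG00000026938, chromosome 2 from 25624666 to 25628030), which encodes ficolin A, a soluble lectin that recognizes microbial sugars, had the highest ratio of this list among genes with over 100 UMIs in each library. It was at 31.6 CPM at E15.5 and at 272, 99.3 and 102 CPM in the E17.5 suffixes 1 to 3, 4.22-fold (3.46 to 5.19), and had 0 UMIs in Lyz2-high cells at E15.5. Its promoter is shown as an example of a short element found before several of these genes. The search word was GAGGAAG, the core bound by PU.1-type factors, looked for on both strands in the 250 bases before the start of each gene in the RefSeq table of build GRCm38.p6. Genes have several windows where they have several starts. The word was found in 10 of the 28 enriched genes higher at E17.5 that had a window (*Clec5a*, *Cxcr3*, *Fcgr3*, *Fcna*, *Gm26740*, *Lair1*, *Prune2*, *Siglece*, *Tbxas1*, *Tlr1*), in 2 of 10 of those lower, in 5 of the 16 leading genes over labelled cells that had a window and in 12.004% of all 27025 genes (10.6% of 32851 windows). The word was chosen with its matches known, so the counts are a description, and 18 of the 28 did not hold it. In the window of *Fcna* (chr2:25627975-25628224, minus strand) capitals mark 3 matches on the gene's strand, which begin 182, 169 and 163 bases before the start. The last 2 overlap by 1 base. In *Fcgr3* (chr1:171059404-171059653, minus strand) capitals mark a match on the opposite strand, next to the start. RefSeq starts can differ from the GENCODE gene ends given for each gene. The *Fcna* window lies partly inside its GENCODE gene, and its matches lie outside it. The *Fcgr3* window lies wholly inside its GENCODE gene, so the letters shown are internal to that annotated gene.
Fcna: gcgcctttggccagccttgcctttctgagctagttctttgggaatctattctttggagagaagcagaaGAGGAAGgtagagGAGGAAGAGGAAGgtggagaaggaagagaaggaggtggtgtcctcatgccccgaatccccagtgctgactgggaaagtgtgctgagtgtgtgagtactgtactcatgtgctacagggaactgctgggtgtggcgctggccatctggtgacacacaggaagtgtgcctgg
Fcgr3: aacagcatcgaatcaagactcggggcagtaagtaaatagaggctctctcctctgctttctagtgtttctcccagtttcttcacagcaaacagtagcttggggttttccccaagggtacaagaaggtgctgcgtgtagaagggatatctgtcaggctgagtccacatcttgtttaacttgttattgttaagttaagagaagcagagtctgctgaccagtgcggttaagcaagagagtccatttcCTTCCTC

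Receptors for the constant part of antibodies were higher at E17.5 as well. Of 6 compared, 3 were at least 2-fold higher in each suffix and none lower. The share of genes higher in each suffix was 2.94% over all genes and 9.55% over enriched genes, to which 5 of the 6 belong. The median log2 ratio was 1.09 in members and 1.85 in labelled cells, where these genes were rarer. *Fcgr2b*, the inhibitory receptor for IgG, was at 55.2 CPM at E15.5 and at 305, 209.6 and 172 CPM in the E17.5 suffixes 1 to 3, a ratio of 3.84 (3.3 to 4.49). *Fcgr3* (ENSMUSG00000059498, chromosome 1 from 171051174 to 171064935), an activating receptor, was at 454 CPM at E15.5 and at 1079, 1140.5 and 994 CPM in the E17.5 suffixes 1 to 3, 2.35-fold (2.23 to 2.49). *Fcgrt*, the neonatal receptor that salvages IgG inside cells, was 2.44-fold higher (2.3 to 2.6), with a ratio of 0.943 in labelled cells. The signalling chain *Fcer1g* was at 1562 and 3001 CPM, 1.92-fold, and *Fcgr1* and *Fcgr4* were 1.6-fold and 1.74-fold higher, short of the 2-fold limit.

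Some genes for taking up particles and dying cells were higher at E17.5. Of 14 scavenger and endocytic receptors, 10 of them enriched genes, 4 (*Cd163*, *Stab1*, *Folr2* and *Clec10a*) were at least 2-fold higher and none lower. The lists share genes, and *Cd163*, *Stab1* and *Folr2* were already counted among the border and tissue-resident genes. Of 12 genes for the uptake of apoptotic cells, *Stab1* and *Itgb5* were higher. The share of higher genes was 4.72% over all genes compared and 17.2% over enriched genes. *Stab1* (ENSMUSG00000042286, chromosome 14 from 31139013 to 31168641), stabilin 1, was at 195 CPM at E15.5 and at 557, 429 and 414 CPM in the E17.5 suffixes 1 to 3, with a ratio of 2.3 in members and 0.981 in labelled cells. *Itgb5*, an integrin chain, was 3.57-fold higher in members and 3.71-fold in labelled cells. *Gas6* was 1.98-fold higher (1.85 to 2.11), just under the limit, while its receptors *Mertk* and *Axl* were at 17.9 and 20.8 and at 30.7 and 23.8 CPM. The endocytic adaptor *Dab2* was abundant, at 1259.9 and 1709 CPM, and *Msr1*, *Cd36* and *Lrp1* stayed within 1.5-fold. Of 27 lysosome genes, 1, the protease *Ctsh*, was at least 2-fold higher, though not in suffix 3. The median of the list was 0.47 (log2), beside 0.07 in labelled cells, with *Ctsb*, *Lgmn* and *Lamp1* at ratios of 1.69, 1.81 and 1.76.

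Iron and haem genes differed in both directions. *Trf* (ENSMUSG00000032554, chromosome 9 from 103204001 to 103230444), transferrin, the carrier of iron, was at 154 CPM at E15.5 and at 598, 532 and 407 CPM in the E17.5 suffixes 1 to 3, 3.2-fold (2.92 to 3.52). In labelled cells its ratio was 0.563, and a *Trf* UMI was found in 34.2% and 69.4% of thinned members, beside 2.92% and 2.09% of labelled cells. In thinned Lyz2-high cells the shares were 43.4% and 73.5%, so the difference was not particular to the members. *Slc40a1*, the iron exporter ferroportin, which fell short of 2-fold in suffix 3, was 2.27-fold higher (1.98 to 2.6), at 74.8 and 169.7 CPM. *Tfrc*, the receptor through which cells import transferrin, was lower, at 25.3 CPM at E15.5 against 3.24, 4.32 and 9.56 in the suffixes. *Ncoa4*, which delivers ferritin to lysosomes, was at 71.7 and 4.61 CPM, but its ratio of 0.0644 was matched by 0.0418 in labelled cells. *Hmox1*, which breaks down haem, and *Blvrb* were 1.59-fold and 1.79-fold higher. Among 17 genes compared, 3 (*Trf*, *Slc40a1* and *Cd163*) were at least 2-fold higher and 2 lower, with a median log2 ratio of 0.32. *Cd163* was also counted in the lists above. Over all genes compared, 4.72% were higher and 5.1% lower. Erythrocyte RNA moved with stage, the median share of *Hbb* UMIs in members being 0.662% at E15.5 against 0.0338% at E17.5, and its part in these differences was not tested.

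Most chemokine genes stayed within 2-fold between the stages, and a few differed in each direction. Of 16 chemokines and cytokines compared, *Ccl7*, *Ccl12* and *Il18* were at least 2-fold higher and *Cxcl1* and *Cxcl2* at least 2-fold lower. Of the 16, 14 were enriched genes. Over all enriched genes, 17.2% were higher and 5.04% lower, so the count of higher chemokines lies near that share. *Ccl12* in suffix 1 and *Cxcl1* in suffix 2 fell short of 2-fold, and the median log2 ratio was 0.00. *Ccl7* and *Ccl12*, which attract monocytes, were at 244 and 238 CPM at E15.5 against 632 and 596 at E17.5. *Ccl2* was at 528 and 949 CPM, 1.8-fold. *Il18*, a cytokine released after cleavage in the inflammasome, was at 74.2 CPM at E15.5 and at 192, 220.2 and 204 CPM in the E17.5 suffixes 1 to 3. *Cxcl2* (ENSMUSG00000058427, chromosome 5 from 90903871 to 90905938) was at 2726 CPM at E15.5 and at 1127, 1308 and 985 CPM in the E17.5 suffixes 1 to 3, a ratio of 0.418 (0.405 to 0.431). All suffixes lay below E15.5. It was found in 75.7% of thinned members at E15.5 against 50.3% at E17.5, and in 1.78% and 2.69% of labelled cells. In Lyz2-high cells it was at 2574 and 323 CPM, and in labelled cells its ratio was 1.31. *Tnf*, *Il1b* and *Ccl3* had ratios of 0.649, 0.582 and 0.667. *Il1b* differed within E17.5, at 9.71, 54.6 and 48.2 CPM. *Nlrp3* (ENSMUSG00000032691, chromosome 11 from 59541568 to 59566956) was at 79.1 CPM at E15.5 and at 19.4, 20.02 and 15.1 CPM in the E17.5 suffixes 1 to 3. *Clec4e* (ENSMUSG00000030142, chromosome 6 from 123281789 to 123289870), the receptor Mincle, was at 37.3 CPM at E15.5 and at 4.86, 3.93 and 2.94 CPM in the E17.5 suffixes 1 to 3, a ratio of 0.0991 (0.0613 to 0.154).

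The promoter of *Cxcl2* is shown as an example of a gene lower at E17.5. *Cxcl2*, *Tnfaip3* and *Nlrp3* are textbook targets of NF-kappa B, picked here from among the lower genes. Other inducible genes did not all follow them. *Tnf* and *Il1b* fell short of 2-fold lower, and *Ccl2* went from 528 to 949 CPM. The targets of NF-kappa B were not examined as a set. The search word was GGGAA directly followed by TTTCC, a form of the NF-kappa B site, looked for on both strands of the same windows. The other word is not in this window. It was found in 28 of 27025 genes (0.104%), and, among the 28 higher and 10 lower enriched genes that had a window, in *Cxcl2* alone. This word, too, was chosen with its matches known. In the window of *Cxcl2* (chr5:90903649-90903898, plus strand) capitals mark the match, which begins 97 bases before the start.
Cxcl2: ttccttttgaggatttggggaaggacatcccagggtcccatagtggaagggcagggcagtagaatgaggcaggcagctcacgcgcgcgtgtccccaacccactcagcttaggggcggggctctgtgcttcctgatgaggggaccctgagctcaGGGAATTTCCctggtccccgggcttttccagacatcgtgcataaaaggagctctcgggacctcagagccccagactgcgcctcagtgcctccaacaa

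Genes of the response to tissue dissociation were examined because the libraries were digested with different enzymes. Of 18 compared, *Dusp1*, *Zfp36*, *Btg2* and *Socs3* were at least 2-fold higher at E17.5 and *Hspa1a* and *Nr4a1* at least 2-fold lower. Of these, only *Zfp36* and *Nr4a1* kept their call in each suffix. Over all genes, 4.72% were higher and 5.1% lower. The median log2 ratio was -0.06 in members and -1.25 in labelled cells. *Fos* was at 1179.7 and 1996 CPM in members and at 1390.4 and 802 in labelled cells. *Hspa1a*, the inducible heat shock protein, was at 270.0 CPM at E15.5 and at 137, 56.5 and 43.8 CPM in the E17.5 suffixes 1 to 3. *Cxcl2*, *Tnfaip3* and *Nlrp3* are inducible as well, and the part of the digestion in their difference was not tested.

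Transcription factors of macrophages were mostly level. Of 22 compared, 19 stayed within 2-fold, the others being *Cebpb*, *Klf2* and *Id1*, with a median log2 ratio of 0.03. *Spi1*, which encodes PU.1, was at 417 and 461 CPM, *Maf* at 362 and 528 and *Irf8* at 122 and 173. *Klf2* was 2.19-fold higher (2.04 to 2.35) in members, with a ratio of 0.707 in labelled cells. *Id1* was lower, at 42.1 and 13.4 CPM, as it was in labelled cells with a ratio of 0.533. *Runx1* had a ratio of 0.599 (0.528 to 0.678).

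Among genes of microglia, *P2ry12*, *P2ry13*, *Gpr34* and *Fcrls* were at least 2-fold higher at E17.5, of 8 compared, and none was lower. The share of higher genes was 4.72% over all genes and 17.2% over enriched genes, to which 5 of the 8 belong. Of the 4, *P2ry12* alone was 2-fold higher in each suffix, where 9.55% of enriched genes were. The median log2 ratio of the list was 0.94 in members and 1.71 in labelled cells. *P2ry12*, a receptor for ADP, was at 28.2 CPM at E15.5 and at 74.5, 78.5 and 73.9 CPM in the E17.5 suffixes 1 to 3, and was found in 9.9% and 20.5% of thinned members and 0% and 0.205% of labelled cells. *Fcrls* was at 449 CPM at E15.5 and at 886, 1089 and 948 CPM in the E17.5 suffixes 1 to 3. Of 9 monocyte genes compared, none was higher and *Plac8*, *Vcan* and *Clec4e* were lower in each suffix, where 3.18% of all genes were. The median log2 ratio of these 9 genes was -0.52. *Plac8* was at 73.1 CPM at E15.5 and at 11.3, 24.7 and 17.7 CPM in the E17.5 suffixes 1 to 3. *Ccr2* was found in 10.9% and 4.55% of thinned members, against 71.1% and 79.6% of Lyz2-high cells, which had medians of 6088.5 and 6622 UMIs before thinning. *Vcan* and *Fn1* are also matrix genes of the mesenchyme, and the difference in *Vcan* was lost without cells of high doublet score, at a ratio of 1.08.

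Other groups moved little or in few members, where 4.72% of all genes were at least 2-fold higher and 5.1% lower. The complement receptors *C3ar1* and *C5ar1* were at ratios of 1.24 and 1.48. Of 17 chemokine and cytokine receptors, *Ccr1*, *Il10ra* and *Il10rb*, the 2 chains of the interleukin 10 receptor, were at least 2-fold higher, of which *Il10ra* alone in each suffix. Of the 17, 10 were enriched genes. Over all enriched genes, 17.2% were higher, so the count of higher receptors lies near that share. Of 8 interferon response genes, *Oas1a* and *Oasl2* were higher, *Oas1a* in each suffix, at 7.11 and 27.1 CPM, while the list was lower in labelled cells, at a median log2 of -1.05 against 0.76. Of 13 genes of lipid handling, *Pltp* was higher and *Lgals3*, galectin 3, lower, and *Apoe* and *Trem2* were at 6610.4 and 182 CPM at E15.5 against 10282 and 205 at E17.5. Of 15 growth factors and matrix regulators, *Igf2* and *Ecm1* were higher and *Hbegf* lower. *Igf2* was at 12.5 and 258 CPM in members but at 44.3 and 1948 in labelled cells. *Tgfb1* was 1.77-fold higher, at 131 and 232 CPM. *Igf1*, insulin-like growth factor 1, was at 125 and 183 CPM in members, while labelled cells went from 459 to 125 CPM. *Ctla2b*, a small inhibitor of cathepsins, had the largest ratio of all enriched genes, at 2.56 CPM at E15.5 against 89, 77.3 and 73.5 in the suffixes, but it has a close paralog, *Ctla2a*, so its counts are uncertain.

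Members were not uniform. After thinning to 3000 UMIs, the ratio of variance to mean of UMIs per member had a median of 1.10 at E15.5 against 1.07 at E17.5 over 1799 genes. The genes with the largest ratios in both libraries were *Actb* (24.8 and 32.9), *Cma1* (17.53 and 86.6), *Apoe* (16.3 and 24.4), *Malat1*, *Ccl4* (11.1 and 16.4), *Cxcl2* (15.3 and 11.1), *Fth1*, *Col1a1*, *Pf4*, *Col1a2*, *Lyz2* (8.53 and 12.7), *Sparc*, *Ftl1*, *Tmsb4x* and *Cd74* (5.26 and 52.4). *Ccl4*, a chemokine, was at 0 in 178 of the 313 thinned E15.5 members and 417 of the 571 E17.5 members, while the highest member had 50 and 59 UMIs. *Cxcl2* was at 0 in 76 and 284 members, and its highest member had 86 and 53. Other genes of this list came from few cells. The mast cell genes had 962 UMIs at E17.5, of which 1 member held 742. The ratio of *Tpsb2*, a mast cell tryptase, was 2.08 over the library but 0.124 and 0.57 in suffixes 1 and 2. In the same library, the class II genes had 1565, of which 1 member held 553. The collagen genes were variable through the members with over 1% of mesenchyme and cartilage RNA, and *Col1a1* went from 32.1 and 9.65 to 2.18 and 1.12 without them.

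Other genes of resident macrophages varied together with *Mrc1* among the members. At E15.5, 97 of 313 thinned members had 0 *Mrc1* UMIs and 163 had at least 2, and at E17.5 these were 92 and 381 of 571. The remaining 53 and 98 had 1 UMI and lie at the limit. Of 3402 genes, 101 were at least 2-fold higher in the *Mrc1*-high members in both libraries (2.97%) and 45 lower (1.32%), with no test. Of 13 border and tissue-resident genes, 11 were higher and none lower, with medians of 2.31 and 1.78 (log2). *Lyve1* was higher by 25.5-fold (E15.5) and 8.87-fold (E17.5), *Gas6* by 24.1-fold (E15.5) and 4.66-fold (E17.5), *Ltc4s* by 5.24-fold (E15.5) and 6.25-fold (E17.5), *Ccl12* by 7.48-fold (E15.5) and 4.22-fold (E17.5) and *Pf4* by 5.12-fold (E15.5) and 3.62-fold (E17.5). *Fcna*, *Folr2*, *F13a1*, *Ednrb*, *Stab1*, *Ccl24* and *Ms4a7* went the same way, as did *Crybb1* and *Tln2*. Of 6 monocyte genes, 5 were lower in *Mrc1*-high members and none higher. *Ccr2* was at 113 CPM in the members without *Mrc1* and 22.5 in those with it at E15.5, and at 119.6 and 7.0 at E17.5. *S100a4* was at 168 and 20.4 CPM at E15.5 against 413 and 25.4 at E17.5. *Plac8*, *S100a6*, *Lyz2*, *Lgals3*, *Clec12a*, *Cd74*, *H2-DMa* and the signalling gene *Traf1* were lower too. Lysosome genes did not differ 2-fold in either direction, and their medians were 0.32 and 0.25. The share of members with at least 2 *Mrc1* UMIs was 66.3%, 69.4% and 64.3% in the 3 suffixes and 52.1% at E15.5.

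**Figure D4:**
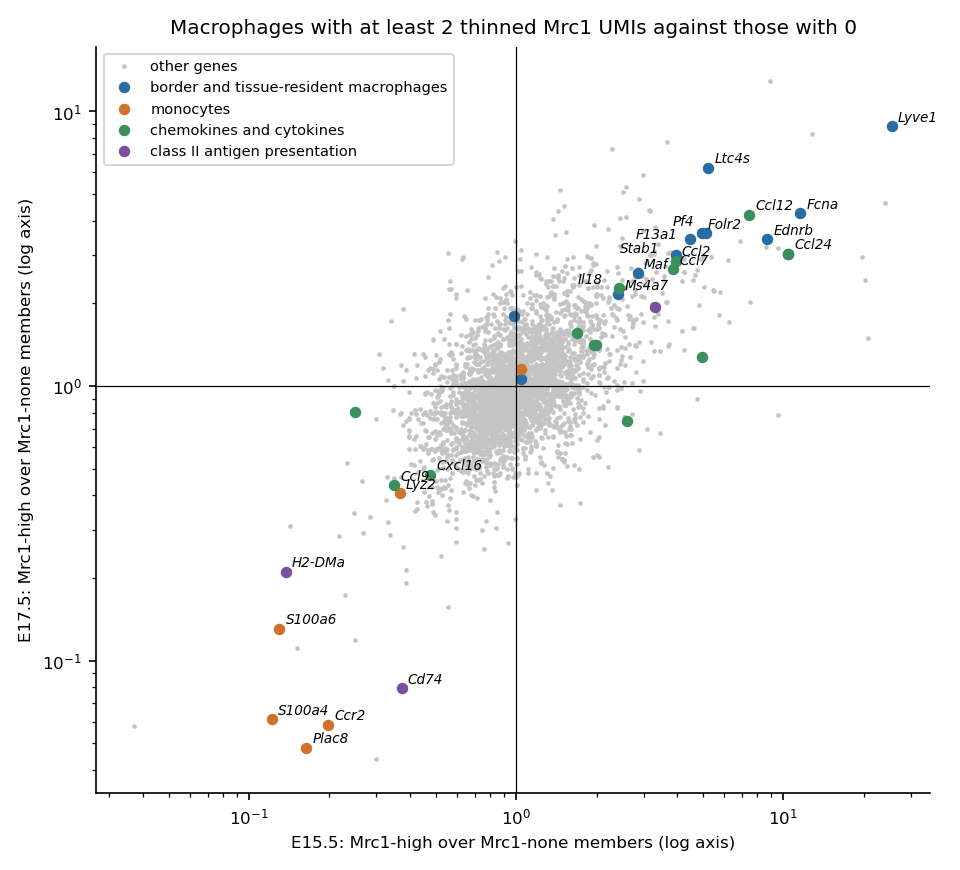
Level in members with at least 2 thinned *Mrc1* UMIs over the level in members with 0, at E15.5 (x axis) and E17.5 (y axis), both log axes, for the genes with at least 30 thinned UMIs in each library. Colours mark 4 gene lists and grey points the other genes. Border and tissue-resident genes lie at the upper right, led by *Lyve1*, and monocyte and class II genes at the lower left.

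Class II antigen presentation marked far fewer members. Of 7 genes compared, *H2-Eb1* was 2.09-fold higher at E17.5, but in suffix 3 alone its ratio was 0.0699. Only 12 and 14 members of the E15.5 and E17.5 libraries had at least 3 thinned UMIs of *H2-Aa*, *H2-Ab1*, *H2-Eb1* and *Cd74* together, against 218 and 470 with 0. In them *Lyz2* was 4.31-fold and 5.66-fold higher, *Lgals3* 5.02-fold and 7.65-fold and *Ifitm3* 5.79-fold and 7.18-fold. Of 14 border and tissue-resident genes, 10 were at least 2-fold lower in them and 1 higher, where 205 of 3129 genes were lower (6.55%) and 55 higher (1.76%).

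Within E17.5, suffix 1 differed from the other suffixes. In its 95 members, 16 of 6162 genes were at least 2-fold higher than in both others (0.26%) and 50 lower (0.811%), while suffix 2 had 1 and 1 (0.0162% each) and suffix 3 had 6 (0.0974%) and 5 (0.0811%). Suffix 1 also held the fewest UMIs, 1235289 against 2547182 and 2719290 in the 235 and 241 members of suffixes 2 and 3. Counting error is therefore largest there, and some of its lower genes had few UMIs, such as 4 of *Tnmd* and 6 of *Tagln*. The higher genes included *Fcna*, *Lyve1*, *Ednrb*, *Ccl6*, *Ccl9* and 3 class II genes, with *H2-Aa* at 83.4, 29.8 and 1.1 CPM. Among the lower genes were *Prrx1*, *Sfrp2* and *Tnmd*, which belong to mesenchyme, and the sum of 10 mesenchyme markers in members was 3735, 6391 and 5739 CPM in the 3 suffixes, beside 4705 at E15.5. Labelled cells of suffix 1 differed as well, with higher *Pi16* and *Ly6a* and lower *Sfrp2* and *Tnmd*. What sets the suffixes apart was not tested.

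Macrophages depend on *Csf1* and *Il34*, the ligands of the receptor Csf1r, and the labelled clusters show which cells carried their RNA. *Csf1* was detected in all 15 labelled clusters, from 3.87 CPM in the osteogenic cluster OG4 to 38.2 (18.3 to 70.2) in the meningeal cluster MG1 and 37.1 (27.4 to 49.2) in OG3 at E15.5. At E17.5 it ranged from 10.3 in OG4 to 40.1 (31.8 to 49.996) in the ectocranial cluster EC3. The intervals of the highest clusters overlapped in each library. Members themselves had 2.28 and 3.85 CPM. *Il34* was highest in OG2 at E15.5, at 18 CPM (14.2 to 22.6), and in the meningeal cluster MG2 at E17.5, at 9.92 CPM (7.31 to 13.1). At E15.5 the interval of PO2 (3.35 to 24.1) overlapped that of OG2. At E17.5 the intervals of MG3 (3.04 to 10.3) and MG4 (2.17 to 9.0) overlapped that of MG2. *Cx3cl1*, the ligand of Cx3cr1, did not exceed 2.07 CPM in any cluster. *Gas6* ran the other way. EC4 had the most among labelled clusters, at 267 and 392 CPM, below the members in both libraries.

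**Figure D5:**
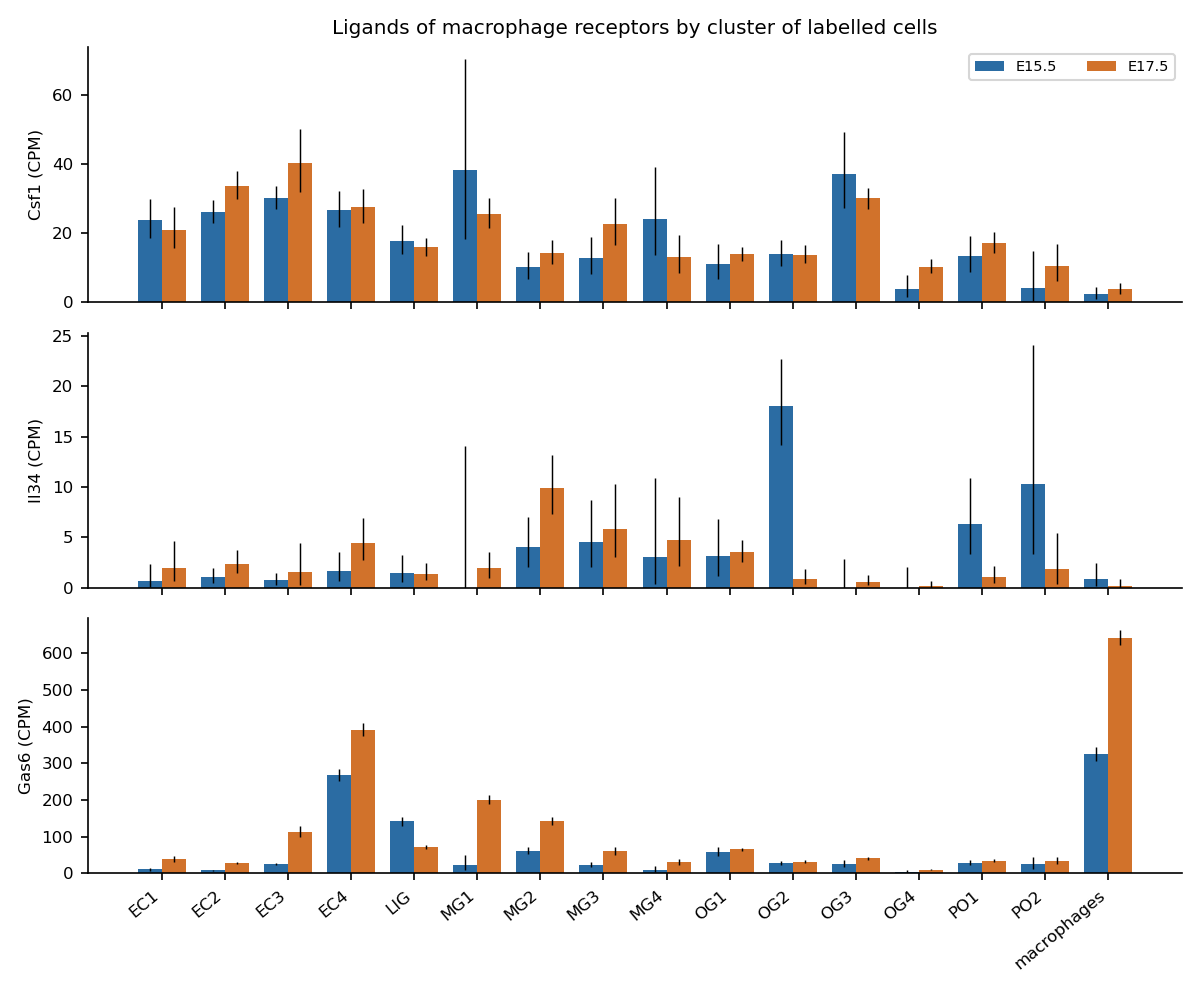
Levels of *Csf1*, *Il34* and *Gas6* in CPM in the 15 labelled clusters and in C1q-high macrophages for E15.5 (blue) and E17.5 (orange), with exact Poisson 95% intervals. *Csf1* is spread over ectocranial (EC), meningeal (MG) and osteogenic (OG) clusters and lowest in the macrophages, whereas *Gas6* is highest in the macrophages.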

How the data were processed

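Cells of embryonic mouse coronal sutures were made into 10x Genomics Chromium 3′ v2 libraries, 1 at E15.5 and, at E17.5, 1 for each of 3 batches, deposited as 1 matrix per stage. The authors counted UMIs with Cell Ranger on the mm10 genome and deposited the raw counts as 2 sparse matrices of whole numbers, with a table that gives the cluster of the osteogenic and mesenchymal cells. The gene lists of the matrices hold 31053 and 27998 genes, and the 26589 present in both were compared. The file header of E15.5 names Cell Ranger 3.1.0, and the submitters' processing notes also name Seurat 3.2.0. The label table was used only to set labelled cells apart.

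UMIs were summed over the members of a library and divided by the sum over all genes (CPM). Exact Poisson, exact conditional and Clopper-Pearson 95% intervals were computed with scipy 1.17.1, pandas 2.3.3 and numpy 2.4.6 in Python 3.11.15, and no p-value was computed. A gene was compared between stages with at least 100 UMIs over both libraries and called at 2-fold, and zeros were set to 3 counts on the log2 scale. For shares of cells and for splits, each cell was thinned to 3000 UMIs with a fixed seed. Doublets were scored with Scrublet in scanpy 1.11.5 and not removed, since the caller marked 415 of 8210 cells in the E15.5 library but 41 of 8767, under 0.5%, in the E17.5 library, where it is taken as failed. It marked 49 of the 318 E15.5 members and 13 of the 571 E17.5 members. Leaving out cells at or above the 94th percentile, which takes 52 and 47 members, was an alternative. For the stages, the 10 genes with the largest differences in each direction were named, with at least 50 UMIs in members of each library and at least 2-fold in each suffix. Against Lyz2-high and Acp5/Mmp9-high cells, the 10 leading genes in each direction were named, at least 2-fold in both libraries with no condition on the suffixes. The 20 leading genes over labelled cells, the 15 most variable genes and members of the gene lists were named too. Enriched genes that differed in each suffix, and genes of the splits, were named after their values were seen. The members, lists and motifs were chosen with earlier results of these data known. Gene positions are from GENCODE vM21 and promoters from RefSeq, both GRCm38. The stage ratios were tested on simulated pooled counts, drawn without variation among cells or libraries. The other steps were not tested on simulated data.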

Additional observations from a re-analysis of the deposited data

How the results depend on the processing

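The direction of the stage difference in named genes rarely turned with the settings tried. Of 107 named genes called between the stages, 97 to 107 were called again at the 2-fold limit, and 54 at 3-fold. Part of this was fixed in advance. Many of these genes were named because they were 2-fold in each suffix, so no suffix taken alone could drop them. A lower minimum of UMIs leaves the ratios as they are and could drop none. These counts are therefore no test of how stable the calls are. The ratio of *Dcn* became 1.13 and that of *Vcan* 1.08 without cells of high doublet score, that of *H2-Eb1* became 0.0699 with suffix 3 alone, and that of *Tpsb2* became 0.124 and 0.570 with suffixes 1 and 2 alone and 0.503 without cells of high doublet score. Counts of genes depended on the limits by construction. With a 1.5-fold and a 3-fold limit, the genes higher at E17.5 numbered 1004 and 116 in place of 355, those lower 1120 and 117 in place of 384, enriched genes higher 141 and 17 in place of 65, and enriched genes lower 39 and 7 in place of 19. In the same order, 1443 and 526 genes were higher and 844 and 128 lower than in Acp5/Mmp9-high cells, 938 and 153 higher and 439 and 92 lower than in Lyz2-high cells, and 2118 and 863 higher than in labelled cells. With at least 20 UMIs, and then with no minimum, 773 and 2374 genes were higher at E17.5 and 898 and 2699 lower, 105 and 252 enriched genes were higher and 42 and 163 lower, 735 and 1889 were higher and 409 and 601 lower than in Lyz2-high cells, and 530 and 774 were lower than in Acp5/Mmp9-high cells. With no minimum, 2067 were higher than in Acp5/Mmp9-high cells and 4951 lower than in labelled cells. With cells thinned to 3000 UMIs, so that fewer genes were compared, 191 genes were higher and 149 lower at E17.5, 8 enriched genes were lower, 522 were higher and 155 lower than in Acp5/Mmp9-high cells, and 119 were lower than in Lyz2-high cells. The mean of each cell's CPM gave 569 genes higher than in Lyz2-high cells. With suffix 1 alone, 228 genes were higher at E17.5 and 135 lower than in Lyz2-high cells, and with suffix 3 alone 233 genes and 40 enriched genes were higher at E17.5, and the cause was not tested. Enriched genes alone, a choice made after the data were seen, gave 65 higher and 19 lower. The share of members was 11.1% and 29.5%, with a ratio of 2.67, over unlabelled cells, and 3.45% in the E15.5 library without cells of high doublet score. The other 171 values of these counts and shares stayed within the spread or within 1.5 times. No paired analysis was possible because E15.5 has 1 library, each stage is 1 deposited sample and no result comes from a test. Depth limits the rarer genes, since 100 UMIs over the members of both libraries were needed for a comparison.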
